A study of Mus musculus with 8 samples.

Results

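The 10 genes described here, B2m, H2-K1, H2-D1, Tap1, Tap2, Tapbp, Psmb8, Psmb9, Psmb10 and Nlrc5, make up the core of MHC class I antigen presentation, and were chosen by name among the 20926 genes of the expression table. Their mRNA was measured by RNA-seq in the molar mesenchyme of mice at postnatal day 3. The control group was 4 libraries of Ezh2 fl/fl mice, in which the gene for the H3K27 methyltransferase Ezh2 carries loxP sites on both alleles and is left intact. The other group was 4 libraries of mice that carry Osr2-Cre beside the same floxed alleles (Osr2-Cre;Ezh2 fl/fl, here called mutants), Cre being made from the Osr2 locus and recombining Ezh2 in the dental mesenchyme. By the labels the dental epithelium was taken off before RNA was made, although epithelial genes were abundant in all 8 libraries. The labels give the strain as C57BL/6, whereas the study's methods describe a mixed background. The labels do not say whether a library came from 1 animal or from pooled molars, so that p-values measure the spread between these libraries.

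MHC class I molecules carry short peptides from inside the cell to its surface, where CD8 T cells and natural killer cells read them. Proteins are cut by the proteasome, the peptides are pumped into the endoplasmic reticulum by the TAP transporter, and tapasin holds empty heavy chains paired with B2m at the transporter until a peptide is bound. Interferon raises the whole set of genes, through IRF1 and the regulator NLRC5 among others, and swaps the standard catalytic subunits of the proteasome for the inducible ones of the immunoproteasome. Ezh2 is the catalytic subunit of Polycomb repressive complex 2, whose mark is associated with silent genes.

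Of the 10 genes, 7 lie in the MHC on chromosome 17, and B2m on chromosome 2 and Psmb10 and Nlrc5 on chromosome 8 lie outside it (GENCODE annotation on GRCm38). Upstream sequence is shown for the chains of the class I molecule itself which carry letters that IRF and NF-kappa B factors are known to read at class I genes, and for Tap1, whose start lies beside that of Psmb9. The sequences are RefSeq reference sequence on GRCm38.p6, written 5′ to 3′ on the strand of the gene, and windows from 250 bases before to 50 bases after the start site were found for 8 of the 10 genes, not for Tap2 and Nlrc5. In the H2-K1 and H2-D1 stretches the capitals mark GGGGATTCCCC, an NF-kappa B motif, and TTTCACTTC, a match on the other strand to the IRF motif GAANNGAAA. In the B2m stretch they mark GAAACTGAAA, a match to the longer IRF motif GAAANNGAAA, and ATTGG, the CCAAT box that NF-Y binds, on the other strand. In the Tap1 stretch they mark CCAAT.
H2-K1: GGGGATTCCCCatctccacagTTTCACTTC
H2-D1: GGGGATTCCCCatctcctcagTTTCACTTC
B2m: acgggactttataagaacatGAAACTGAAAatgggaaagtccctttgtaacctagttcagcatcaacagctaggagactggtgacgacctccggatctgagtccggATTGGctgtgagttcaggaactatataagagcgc
Tap1: ggctttCCAATcagcggctgcgcgcggtgc
The H2-K1 stretch lies at chr17:34000429-34000458 on the minus strand, from 111 to 82 bases before the start site and outside the annotated gene. The H2-D1 stretch lies at chr17:35262923-35262952 on the plus strand, from 171 to 142 bases before the RefSeq start site, in what the GENCODE annotation gives as the 5′ UTR of a longer first exon. The 2 stretches were identical at 29 of 30 bases, the difference being A18T (the H2-K1 base, its position counted from 1 at the 5′ end of the stretch, and the H2-D1 base). The B2m stretch lies at chr2:122147528-122147667 on the plus strand, from 159 to 20 bases before the start site, and inside an intron of Patl2 on the opposite strand. The Tap1 stretch lies at chr17:34187328-34187357 on the plus strand, from 228 to 199 bases before the start site. The GENCODE annotation gives this place as the 5′ UTR of a longer Psmb9, which runs the other way. Counted from the RefSeq start site of Psmb9, the marked letters begin 8 bases before that start. The RefSeq start sites of Tap1 and Psmb9 lie 226 bases apart on opposite strands, so that their windows share 275 of 300 bases.

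On both strands, GGGGATTCCCC was in 10 of the 32817 mouse windows of this length (0.0305%), belonging to 9 genes, among them H2-K1, H2-D1 and H2-Q6. The short IRF motif was in 7.52% of all windows and in 2 of the 8 genes with a window, H2-K1 and H2-D1. The longer IRF motif, counted separately since its spacing differs, was in 3.43% of windows and only in B2m among the 8 genes. CCAAT was in 37.4% of windows and in 6 of the 8 genes, of which Tap1 and Psmb9 share the same bases. The letters of the NF-kappa B and short IRF motifs were taken from the H2-K1 window, and those of the longer IRF motif from the B2m window. Their matches in H2-K1 and B2m were thus given in advance, and the H2-D1 stretch is nearly identical to that of H2-K1. These are matches of letters in 1 window a gene or transcript and describe no binding.

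The values of the table have no length factor and were scaled by the authors so that the upper quartile of each library is the same. An estimate of 48.3 to 68.8 M reads per library was obtained from the smallest value of each library, and 3 reads correspond to a value of 0.0516 to 0.0758. Differences were tested with limma on log2(value + 1) over the 14854 genes that reached a value of 1 in 4 or more libraries. Fold changes are on that log2 scale, which understates the change of genes near 0. The targeted gene, Ezh2, was at 55.0, 38.3, 39.6 and 39.0 in control libraries 1 to 4 and at 35.2, 30.1, 23.2 and 36.0 in mutant libraries 1 to 4, so that the groups did not overlap. Its log2 fold change was -0.46 (SE 0.16), with an unadjusted p of 0.0179 and a Benjamini-Hochberg adjusted p of 0.235 in limma. The unadjusted call was lost without mutant libraries 1 and 3 (-0.36, p 0.0584) and with array weights (-0.19, p 0.0568). Reads of the whole Ezh2 gene include exons outside the floxed part. The summed level of 8 dental mesenchyme and odontoblast markers was 10541 to 12776 in the controls and 8925 to 10246 in the mutant libraries, most of it Col1a1 and Dspp. Of these 8 markers, 3 were higher (Msx1, Twist1 and Runx2) and 1 lower (Dspp) at an unadjusted p under 0.05 in limma, beside 8.27% and 4.87% of all 14854 genes tested, 0 passed after adjustment, and their median log2 fold change was -0.03. Although the epithelium had been taken off, 7 genes of ameloblasts and epithelium summed to 2220 to 31754 in the controls and to 2202 to 13320 in the mutant libraries. Amelx, the main enamel matrix gene, ranged from 316 to 16250 over the 8 libraries, with the keratin Krt5 at 827 to 1992. All 7 had a log2 fold change below 0 (median -0.48), where 54.1% of all genes tested were above 0. Of the 7, 1 (Epcam) was lower at an unadjusted p under 0.05 in limma, beside 4.87% of all genes, and 0 after adjustment.

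All 10 genes passed the filter and were detected in these libraries, over a wide range of levels. Per kilobase of exon, B2m was the highest in controls, at 165 ± 15.9 (SD, n = 4), and was followed by H2-D1 at 26.3 ± 12.4, Tapbp at 17.3 ± 2.19 and H2-K1. The control libraries of H2-D1 (13.4 to 42.9 per kilobase) and Tapbp (14.8 to 20.1) overlapped, and so did those of H2-D1 and H2-K1 (4.81 to 13.7). Tapbp and H2-K1 did not overlap. Psmb10 followed at 4.27 ± 0.476, and Tap2 at 2.56 ± 0.269, Tap1 at 1.87 ± 0.146 and Psmb8 at 1.49 ± 0.203 came next. Psmb9, at 0.484 ± 0.0724, and Nlrc5, at 0.104 ± 0.0233, were the lowest. Among these, only Tap1 (1.66 to 2.00) and Psmb8 (1.23 to 1.72) overlapped as neighbours. The order of the means was the same in the mutant libraries, from B2m at 208 ± 53.8 to Nlrc5 at 0.370 ± 0.337 (SD, n = 4). The length used joins the exons of all transcripts of a gene. It was 5476 bases for Tap1 and 3381 for Psmb8, against 2953 and 1628 in their longest coding transcripts. For Tap2 the 2 lengths were 3781 and 3442, and for H2-K1 2938 and 1619. The order of genes at similar levels, such as Tap2, Tap1 and Psmb8, and their overlap therefore depend on the length chosen.

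In the mutant libraries the peptide transporter and 2 of the 3 immunoproteasome subunits were higher, while tapasin, Psmb10, the chains of the class I molecule and Nlrc5 did not pass the test. At an unadjusted p under 0.05 in limma, 4 of the 10 genes were higher (Tap1, Tap2, Psmb8 and Psmb9) and 0 were lower, beside 8.27% of all genes tested that were higher and 4.87% that were lower (13.1% in either direction). At an adjusted p under 0.05 only Tap2 was called, as higher, beside 1.56% of all genes that were higher and 0.512% that were lower (2.07% in either direction). The 10 log2 fold changes were all above 0, beside 54.1% of all genes tested, and their median was 0.60 against 0.01 over all genes tested. In 3 genes, Tap1, Tap2 and Psmb8, every mutant library lay above every control, which was so in 5.76% of all genes tested, and 0 of the 10 lay below every control, which was so in 2.77%. The exact permutation test given beside single genes is two-sided over the arrangements of 8 libraries, and 0.0286 is the smallest p that 4 libraries against 4 can give. RNA of whole tissue was measured, so that a change in the share of cells that express a gene and a change in the RNA of each cell cannot be told apart.

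**Figure D1:**
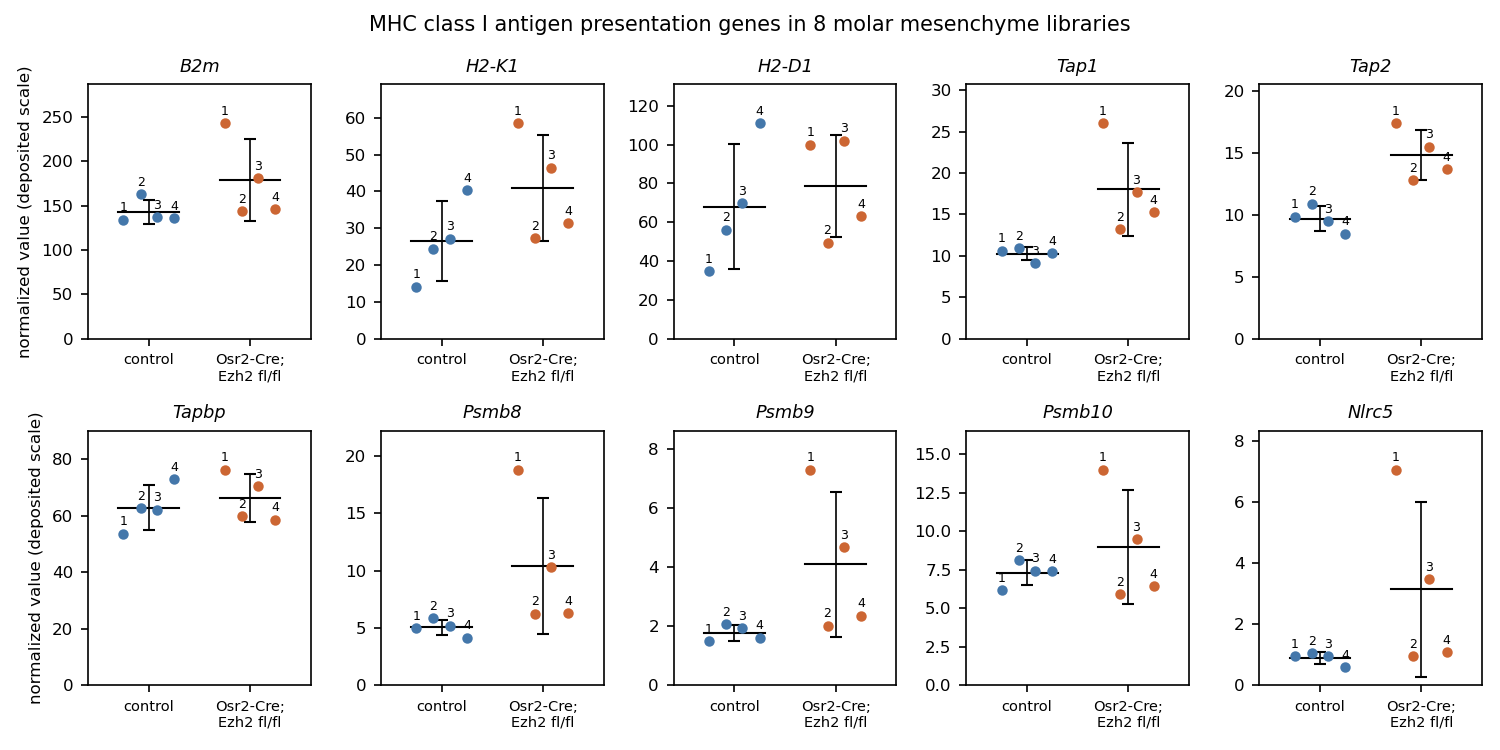
Normalized values (deposited scale, linear axis from 0) of the 10 genes, each point being a library numbered as in its label, with the mean (line) and SD (bar) of 4 control (blue) and 4 mutant (Osr2-Cre;Ezh2 fl/fl, orange) libraries. Mutant library 1 is the highest of the 8 in every gene except H2-D1, and the groups are apart in Tap1, Tap2 and Psmb8 alone.

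Tap1 and Tap2 together form the transporter that moves peptides into the endoplasmic reticulum. Tap1 was at 10.6, 10.9, 9.11 and 10.3 in controls 1 to 4 and at 26.0, 13.2, 17.7 and 15.3 in mutant libraries 1 to 4. The controls lay close together and all 4 mutant libraries were above them. Tap1 had a log2 fold change of 0.72 (SE 0.18, 95% interval 0.32 to 1.12), and the ratio of the means was 1.76. Its p was 0.00250 unadjusted and 0.0809 adjusted in limma, with an exact permutation p of 0.0286. The log2 fold change was 0.54 without mutant library 1 and 0.44 without mutant libraries 1 and 3.

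Tap2 was at 9.85, 10.9, 9.47 and 8.48 in the controls and at 17.4, 12.8, 15.5 and 13.7 in the mutant libraries. All 4 mutant libraries lay above all controls, and library 2 came closest to them. Tap2 had a log2 fold change of 0.56 (SE 0.12, 95% interval 0.31 to 0.82), with a ratio of the means of 1.53, an unadjusted p of 0.000734 and an adjusted p of 0.0412 in limma, and an exact permutation p of 0.0286. The adjusted call was lost when any 1 library was left out, with adjusted p values from 0.0505 to 0.154, and the unadjusted p stayed between 0.000523 and 0.00288. Tap2 shares 8.97% of its 75-base exon windows with other genes, mostly Gm15821 on the opposite strand, and it is not stated whether reads were counted by strand.

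Tapbp encodes tapasin, which tethers empty class I molecules to the transporter. It was at 53.6, 62.7, 62.2 and 73.0 in the controls and at 76.3, 59.9, 70.5 and 58.6 in the mutant libraries, and the groups overlapped. Its log2 fold change was 0.08 (SE 0.11, 95% interval -0.18 to 0.33), with an adjusted p of 0.883 in limma. Tapbp shares 17.5% of its 75-base exon windows with other genes, mostly Gm19412 on the opposite strand. The difference between Tapbp and Tap1 or Tap2 in the size of the change was not tested, and the estimate of Tapbp was -0.08 without mutant libraries 1 and 3.

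Psmb8, Psmb9 and Psmb10 encode the catalytic subunits beta5i, beta1i and beta2i of the immunoproteasome. Psmb8 was at 4.99, 5.81, 5.17 and 4.14 in the controls and at 18.8, 6.23, 10.3 and 6.27 in the mutant libraries. All 4 mutant libraries were above the controls, libraries 2 and 4 by little and libraries 1 and 3 by far more. Psmb8 had a log2 fold change of 0.80 (SE 0.29, 95% interval 0.14 to 1.45), with p of 0.0221 unadjusted and 0.262 adjusted in limma and an exact permutation p of 0.0286. It no longer passed the unadjusted threshold without mutant library 3 or without control 4, the p rising to at most 0.0548, nor without mutant libraries 1 and 3 (0.27, p 0.0611) or with array weights (0.28). Without mutant library 1 its log2 fold change was 0.49.

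Psmb9 was at 1.49, 2.06, 1.92 and 1.61 in the controls and at 7.31, 2.02, 4.68 and 2.36 in the mutant libraries. Library 2 lay inside the range of the controls, and libraries 1 and 3 were again the highest. The log2 fold change was 0.76 (SE 0.29, 95% interval 0.11 to 1.41), with p of 0.0259 unadjusted and 0.279 adjusted in limma and an exact permutation p of 0.0571. The unadjusted call was lost without mutant library 1 or 3 and without control 1 or 4, with p of at most 0.0732, and also without both mutant libraries 1 and 3 (0.20, p 0.136) and with array weights (0.26, p 0.101). Without mutant library 1 the estimate was 0.48. As Psmb9 shares 10.8% of its 75-base exon windows with Tap1 on the opposite strand, the values of the 2 genes are not fully separate if strand was not used.

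Psmb10, on chromosome 8, was at 6.18, 8.14, 7.43 and 7.40 in the controls and at 14.0, 5.91, 9.49 and 6.44 in the mutant libraries. Library 2 of these was the lowest of all 8 libraries and library 1 the highest. Psmb10 had a log2 fold change of 0.20 (SE 0.22, 95% interval -0.30 to 0.70), with an adjusted p of 0.830 in limma, and it turned to -0.02 when mutant library 1 was left out.

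Each immunoproteasome subunit takes the place of a constitutive one, and the ratio of the 2 within a library does not depend on how libraries were scaled. The constitutive subunits Psmb5, Psmb6 and Psmb7 had log2 fold changes between -0.03 and 0.14, and none of the 3 passed the test. Psmb8/Psmb5 was 0.0997, 0.101, 0.0888 and 0.0642 in the controls and 0.279, 0.126, 0.197 and 0.111 in the mutant libraries, without overlap. On the log2 scale the ratio was higher by 0.94, from -3.52 ± 0.30 to -2.59 ± 0.61 (SD, n = 4 per group), with an exact permutation p of 0.0286, or 0.0429 after adjustment over the 3 ratios.

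Psmb9/Psmb6 was 0.0116, 0.0136, 0.0131 and 0.0104 in the controls and 0.0413, 0.0139, 0.0288 and 0.0150 in the mutant libraries. The groups did not overlap, but library 2 of the mutant group and control 2 nearly met. The log2 ratio was higher by 0.88, from -6.37 ± 0.18 to -5.49 ± 0.76 (SD, n = 4 per group), with an exact permutation p of 0.0286, adjusted 0.0429. Psmb10/Psmb7 was 0.0805 to 0.0957 in the controls and 0.0762 to 0.142 in the mutant libraries, and its log2 ratio differed by 0.17, with an exact permutation p of 0.543. With any control left out, the p of the first 2 ratios rose to between 0.0571 and 0.143.

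**Figure D2:**
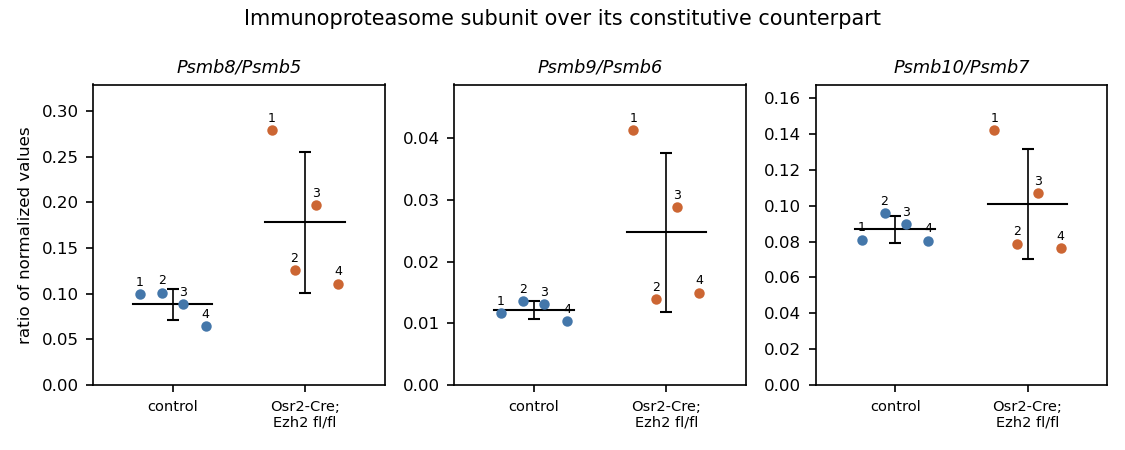
Ratio of normalized values of each immunoproteasome subunit to its constitutive counterpart, by library (points, numbered as in the labels), with mean (line) and SD (bar) of 4 control and 4 mutant libraries on linear axes from 0. The groups are apart for Psmb8/Psmb5 and Psmb9/Psmb6, with mutant libraries 1 and 3 the highest, and overlap for Psmb10/Psmb7.

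B2m, the light chain of every class I molecule, was at 134, 163, 137 and 136 in the controls and at 243, 144, 181 and 146 in the mutant libraries. Controls 1, 3 and 4 were nearly equal, control 2 lay inside the range of the other group, and libraries 1 and 3 were above all controls. The log2 fold change was 0.30 (SE 0.16, 95% interval -0.06 to 0.65), with an unadjusted p of 0.0901 and an adjusted p of 0.491 in limma and an exact permutation p of 0.171. Without mutant library 2 or 4, B2m passed the unadjusted threshold, with p down to 0.0386, whereas its log2 fold change was 0.14 (p 0.222) without mutant library 1 and 0.03 without libraries 1 and 3.

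H2-K1 and H2-D1 encode the classical heavy chains, which hold the peptide. H2-K1 was at 14.1, 24.4, 27.1 and 40.3 in the controls and at 58.5, 27.3, 46.4 and 31.4 in the mutant libraries. The controls were widely spread and control 4 lay above 2 of the mutant libraries. H2-K1 had a log2 fold change of 0.63 (SE 0.31, 95% interval -0.07 to 1.34), with an unadjusted p of 0.0720, an adjusted p of 0.452 in limma and an exact permutation p of 0.143. It passed the unadjusted threshold without mutant library 2 or without control 4, with p down to 0.0172. Its log2 fold change was 0.38 (p 0.193) without control 1, 0.45 (p 0.198) without mutant library 1 and 0.23 (p 0.525) without mutant libraries 1 and 3.

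H2-D1 was at 34.6, 56.1, 69.9 and 111 in the controls and at 100, 49.5, 102 and 63.0 in the mutant libraries. The highest and the lowest libraries were both controls, and the spread within each group was wider than the distance between the groups. The log2 fold change was 0.27 (SE 0.34, 95% interval -0.51 to 1.04), with an adjusted p of 0.862 in limma, and it was -0.01 without control 1 and -0.16 without mutant libraries 1 and 3. Near-identical heavy chain genes can share reads: 1.55% of the 75-base exon windows of H2-K1 also occur in H2-D1, and 7.10% of those of H2-D1 occur in another gene, mostly in H2-Q1.

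The order of the libraries in H2-D1 was unlike that of Tap1 or Psmb8, and other genes of the MHC, picked after their values were seen, varied with it. H2-T10, a class I-like gene annotated as a polymorphic pseudogene, was at 0.457, 0.371, 2.88 and 6.81 in the controls and at 3.02, 0.537, 5.68 and 3.06 in the mutant libraries. BC023719, an antisense transcript overlapping H2-T10, was estimated at 0, 0, 144 and 578 reads in the controls and at 82, 0, 347 and 150 reads in the mutant libraries. Controls 1 and 2 and mutant library 2 were the 3 lowest libraries in H2-T10, BC023719 and H2-D1 alike, and control 4 was the highest in all of them. H2-T22, a close relative of H2-T10, was at 26.0, 25.7, 18.7 and 8.38 in the controls and at 30.9, 24.8, 17.7 and 23.2 in the mutant libraries, with control 4 the lowest. The part that this variation among libraries had in the H2-D1 and H2-K1 values was not tested, and neither was that of the mixed background of the mice. The enamel matrix genes were also highest in control 4, and when the mean log2 level of enamel genes (Enam, Ambn and Amelx) was added to the model, H2-K1 and H2-D1 passed the unadjusted threshold beside Tap1, Tap2, Psmb8 and Psmb9, but 0 of the 10 genes passed after adjustment in limma.

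**Figure D3:**
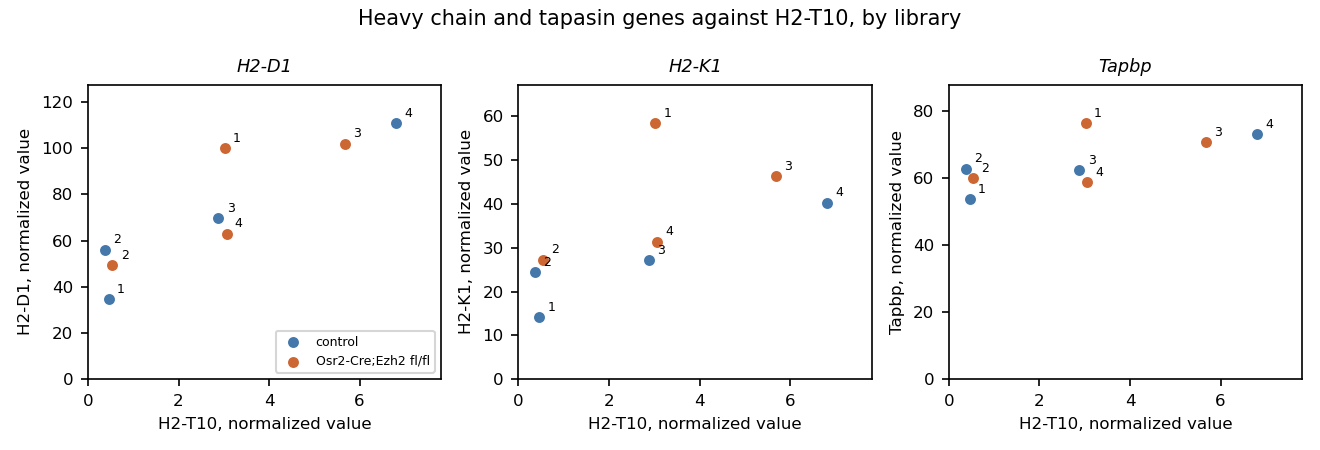
Normalized values of H2-D1, H2-K1 and Tapbp (vertical axes) against H2-T10 (horizontal axis), each point a control (blue) or mutant (orange) library numbered as in its label, on linear axes from 0. Controls 1 and 2 and mutant library 2 lie at H2-T10 values of 0.371 to 0.537 and hold the lowest H2-D1 values, and control 4 has the highest of both.

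Nlrc5 encodes the transactivator that raises class I genes, the counterpart of Ciita for class II. It was at 0.956, 1.05, 0.946 and 0.596 in the controls and at 7.07, 0.940, 3.47 and 1.08 in the mutant libraries. Libraries 2 and 4 were at or near the level of the controls, and libraries 1 and 3 were at 7.98 and 3.91 times the control mean. Nlrc5 passed the filter through 1 control and 3 mutant libraries. Its log2 fold change was 0.89 (SE 0.40, 95% interval -0.01 to 1.79), with an unadjusted p of 0.0530 and an adjusted p of 0.391 in limma and an exact permutation p of 0.114. The unadjusted p was 0.0454 with a pseudocount of 0.1 (log2 fold change 1.29), 0.0497 with no filter on low values, 0.0146 without mutant library 2 and 0.107 without control 4. The log2 fold change was 0.10 (p 0.468) without mutant libraries 1 and 3 and 0.18 (p 0.404) with array weights.

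The 4 mutant libraries were far from alike. In 8 of the 10 genes, all but H2-D1 and Tapbp, the 2 highest libraries of the 8 were mutant libraries 1 and 3, a pattern seen in 10.7% of all genes tested. The median of the 10 genes relative to their control means was 2.06 in library 1, 1.67 in library 3, 1.21 in library 4 and 1.05 in library 2, against 0.896 to 1.12 in the controls. Without libraries 1 and 3, a comparison added after the data were seen, the median over the 10 genes fell to a log2 fold change of 0.15. Tap1 and Tap2 were then the only ones with an unadjusted p under 0.05 in limma. Beside them, 1703 genes were higher and 1300 lower of the 14854 tested in that setting. Tap1 then had a log2 fold change of 0.44 and an adjusted p of 0.0752 in limma, and Tap2 of 0.42 and 0.0944. Libraries 1 and 3 had an estimated depth of 48.3 and 64.1 M reads, library 1 being the shallowest of the 8.

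Some genes outside the 10 were also highest in mutant libraries 1 and 3. Those named here were picked among all genes tested for their correlation with the mean standardized profile of the set over the 8 libraries. Their likeness was thus given by the choice. They included Ccdc115 (r = 0.994), Mrpl23 (0.984), Rps23 (0.982), Rpl36a-ps2 (0.981), Mpc2 (0.980), Fam162b and Gm9794 (each 0.978), Coro1b (0.975) and Srp19 (0.974). Rps23, a ribosomal protein gene, was at 416, 506, 481 and 525 in the controls and at 706, 485, 619 and 494 in the mutant libraries. The median of 76 ribosomal protein genes, relative to their control means, was 0.902 to 1.09 in the controls and 1.36, 0.907, 1.12 and 0.975 in the mutant libraries. It was thus highest in the same libraries 1 and 3, by less than the 10 class I genes, and its part in their values was not tested.

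Around the core, 50 of 54 other genes of the class I pathway were in the table and 45 were tested. At an unadjusted p under 0.05, 5 were higher and 0 lower, beside the 8.27% and 4.87% of all genes tested, and the median log2 fold change was 0.09. Among the 9 nonclassical heavy chain genes tested, H2-Q6, H2-Q7 and H2-M5 were higher. H2-Q7 was at 1.72, 1.31, 1.76 and 1.14 in the controls and at 3.43, 3.67, 3.20 and 3.35 in the mutant libraries, at about the same level in each of the latter. Its log2 fold change was 0.84 (SE 0.11), with an adjusted p of 0.00606 in limma. H2-Q6, at 0.117 to 0.717 and at 1.07 to 1.77, had a log2 fold change of 0.69 (SE 0.16) and an adjusted p of 0.0623, and H2-M5, at 0.612 to 1.22 and 1.04 to 2.05, had a log2 fold change of 0.48 and an adjusted p of 0.183. H2-Q6 passed the filter through the mutant group alone and H2-M5 through 1 control and 4 mutant libraries, and H2-Q6 and H2-Q7 are near copies between which reads may be split.

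Upstream of the pathway, 13 genes of interferon signalling were tested. Ifngr1, a chain of the interferon gamma receptor, was at 87.4, 87.8, 79.6 and 72.6 in the controls and at 93.9, 116, 119 and 130 in the mutant libraries, with no overlap. Its log2 fold change was 0.48 (SE 0.11), with an unadjusted p of 0.00136 and an adjusted p of 0.0588 in limma, and library 1 was the lowest of the 4. Irf1, a direct activator of class I promoters, was at no more than 13.4 in the controls and at 29.5, 9.31, 22.1 and 10.4 in the mutant libraries, and did not pass the test. The chaperones and trimming enzyme of peptide loading (5 genes), the class I-like chains that pair with B2m (4 tested), the proteasome activators and assembly factor (4) and the factors that bind class I promoters with Nlrc5 (7) had 0 genes past the unadjusted threshold in limma, with log2 fold changes between -0.22 and 0.28.

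Of 15 genes induced by interferon, 14 were tested, 4 were higher at an unadjusted p under 0.05 (Oasl2, Igtp, Irgm1 and Usp18), 0 were lower and 0 passed after adjustment in limma, beside 8.27% of all genes that were higher and 4.87% that were lower without adjustment. Their median log2 fold change was 0.39, and in 10 of the 14 the 2 highest libraries were mutant libraries 1 and 3, beside 10.7% of all genes. Iigp1, a GTPase that is a sensitive target of interferon gamma, did not pass the test but was spread widely, at 2.38, 4.17, 2.70 and 2.31 in the controls and 25.9, 1.14, 12.3 and 2.30 in the mutant libraries. Igtp was at 3.82 to 4.11 in the controls and at 14.6, 4.56, 8.92 and 4.75 in the mutant libraries, and had a log2 fold change of 0.75 (SE 0.29).

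**Figure D4:**
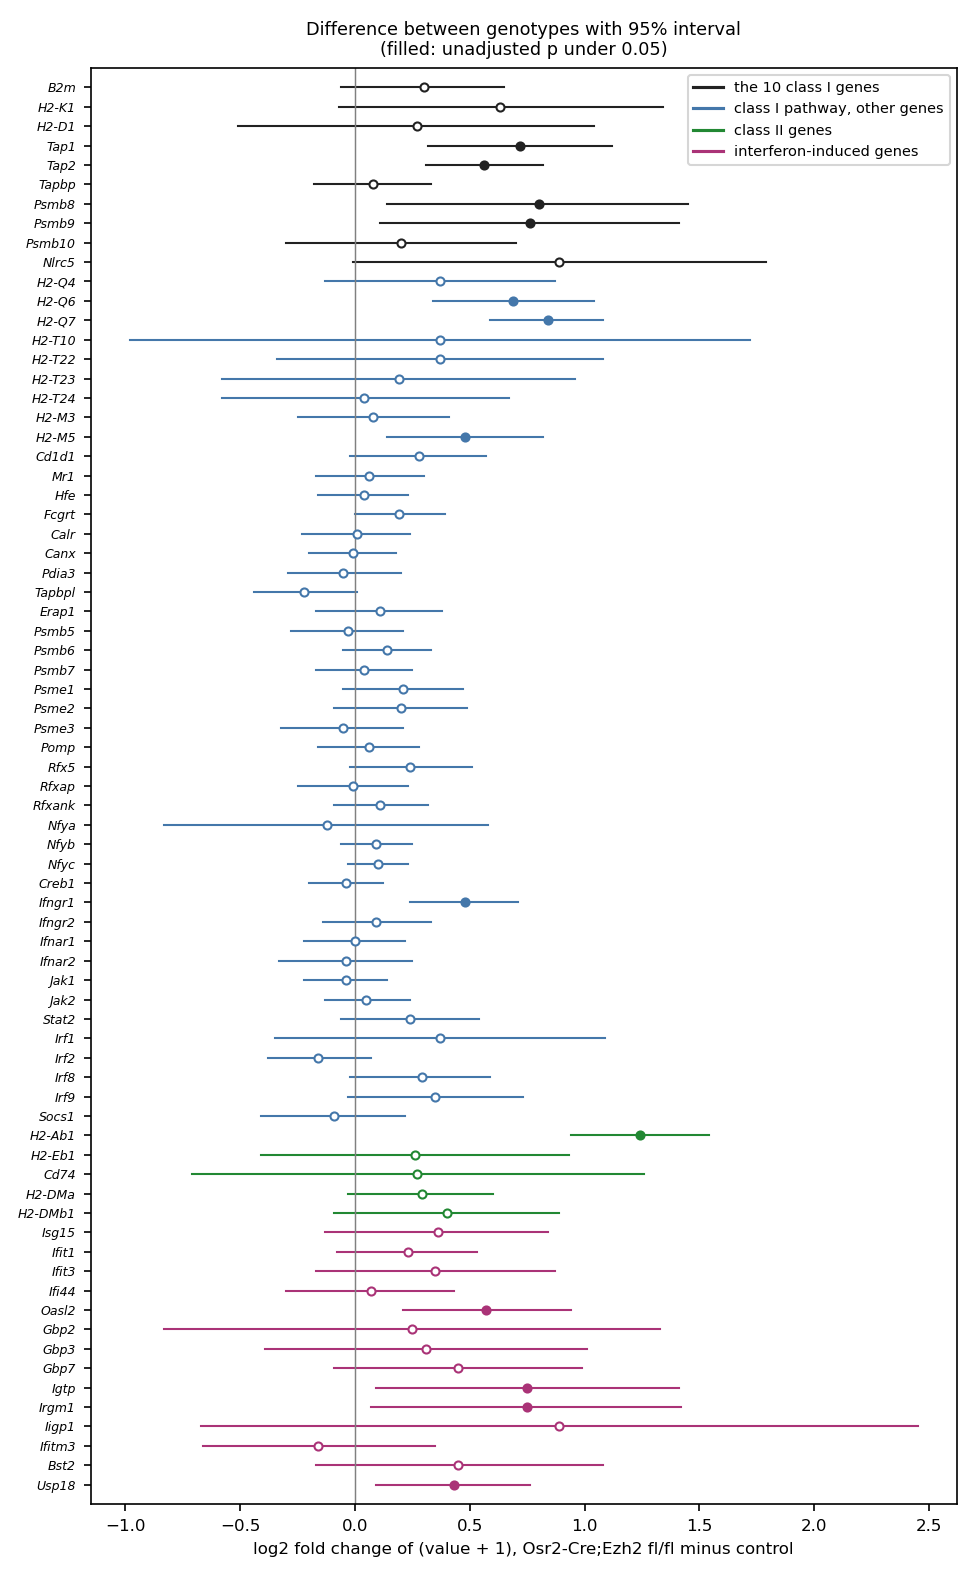
Log2 fold change of value + 1 (mutant minus control, n = 4 per group) with its 95% interval from limma for the 10 genes, other class I pathway genes, the class II genes and the interferon-induced genes that were tested; filled points have an unadjusted p under 0.05. Filled points lie only to the right of 0, and most genes of peptide loading, the standard proteasome and receptor signalling lie near 0.

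Class II genes, which present peptides taken up from outside the cell and are made mostly by professional antigen-presenting cells, numbered 7, of which 5 were tested. Of these 1 was higher both at an unadjusted and at an adjusted p under 0.05 in limma, beside 8.27% and 1.56% of all genes, and 0 were lower. H2-Ab1, the beta chain of I-A, was at 2.59, 3.10, 2.79 and 3.03 in the controls and at 11.0, 7.43, 6.95 and 7.69 in the mutant libraries, with a log2 fold change of 1.24 (SE 0.14) and an adjusted p of 0.00313 in limma. It was high in all 4 of those libraries. Its partner chain H2-Aa was at 0.573 to 1.14 in the controls and at 5.93, 0.546, 0.806 and 0.465, and the invariant chain Cd74 was at 1.70 to 3.03 and at 11.0, 1.61, 2.22 and 1.68. Both were above the controls only in mutant library 1. H2-Aa and Ciita were too low to be tested, and Ciita was at 0.138 to 0.168 in the controls and at 0.720, 0.0758, 0.410 and 0.103.

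Markers of blood cells were examined beside these values, since leukocytes are rich in class I mRNA. None of 10 macrophage markers passed the test in limma, and 8 of the 10 had a log2 fold change above 0, beside 54.1% of all genes tested. They summed to 196 to 301 in the controls and to 316, 301, 266 and 295 in mutant libraries 1 to 4. Csf1r was at 45.4 to 81.2 in the controls and at 55.6 to 63.2 in the mutant libraries. The complement genes C1qa, C1qb and C1qc were at 43.3, 49.2 and 43.9 in mutant library 1, against at most 31.8 in any control, and the part of such cells in the class I values of that library was not tested. Mrc1 had a log2 fold change of 0.43 (unadjusted p 0.0738 in limma) and Adgre1 of 0.35 (0.0510), and both were highest in mutant libraries 2 and 4. Of 9 lymphocyte markers only 4 were in the table, Cd3e, Cd3d, Cd8a, Nkg7 and Klrb1c not being listed, and these summed to 1.53 to 2.08 and to 1.33 to 2.42. Neutrophil markers summed to 6.93 to 12.8 in the controls and to 30.1, 6.55, 20.1 and 4.93 in mutant libraries 1 to 4, S100a8 being at 13.1 and 6.62 in libraries 1 and 3 and at 1.54 to 4.17 in the other 6. The sum was carried by S100a8 and S100a9, the latter at 14.7 and 9.41 in libraries 1 and 3 and at 2.32 to 5.84 in the other 6. Ngp, Camp and Mpo did not follow in library 1, where they were at 1.82, 0.246 and 0.227, each below at least 2 controls. In library 3, Ngp (3.06) and Camp (0.693) were the highest of the 8 libraries, and Mpo (0.283) was below 2 controls. Ly6g was not listed in the files. The part of such cells in the class I values of libraries 1 and 3 was not tested. All 6 endothelial markers had a log2 fold change below 0, where 54.1% of all genes tested were above 0. Of the 6, 3 were lower at an unadjusted p under 0.05, beside 4.87% of all genes, and 0 after adjustment in limma. Their sums were 328 to 369 in the controls and 293 to 319 in the mutant libraries.

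Over the 2.21 megabases of chromosome 17 from Tapbp to H2-T10 (chr17:33915899-36121465), 103 genes were tested, of which 7 were among the 10 described here. Of the other 96 genes, 11 were higher and 2 lower at an unadjusted p under 0.05, beside 8.27% and 4.87% of all genes, and their median log2 fold change was 0.04. After adjustment 3 of the 96 were higher (H2-Ab1, BC051142 and H2-Q7), beside 1.56% of all genes. Psmb9, Tap1, Psmb8 and Tap2 lie side by side in this order, and H2-Ab1 is the nearest of the 3 to them.

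**Figure D5:**
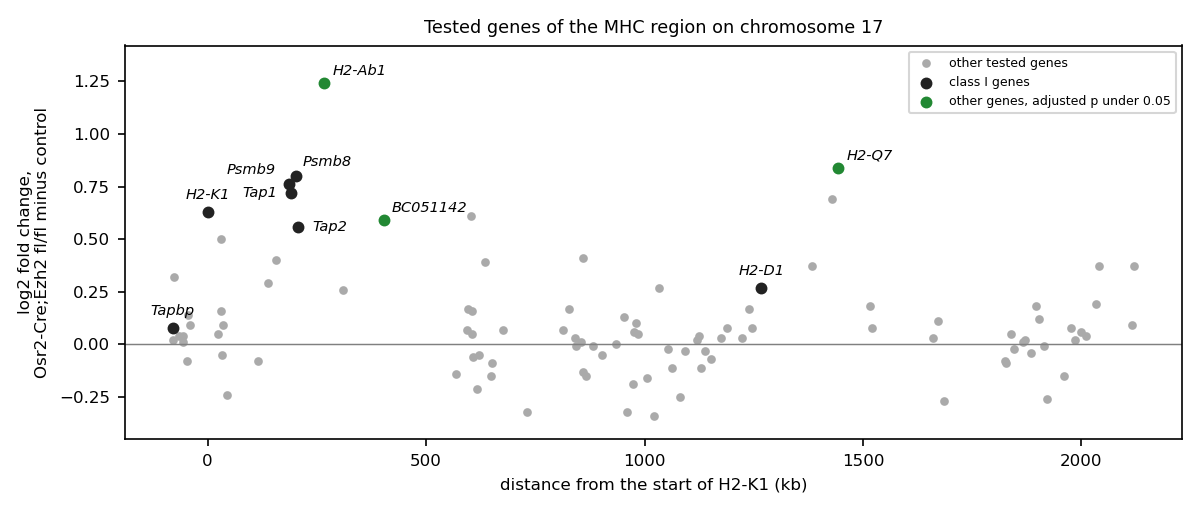
Log2 fold change (mutant minus control) of the 103 tested genes between Tapbp and H2-T10 on chromosome 17 against their distance from the start of H2-K1 in kb; black points are the class I genes described here, green points other genes with an adjusted p under 0.05. Psmb9, Tap1, Psmb8 and Tap2 lie together at log2 fold changes of 0.56 to 0.80, while most other genes of the region lie near 0.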

How the data were processed

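RNA-seq values of 8 libraries of mouse molar mesenchyme (4 control, 4 Osr2-Cre;Ezh2 fl/fl) were analysed, grouped and numbered by their labels. The authors trimmed 75-cycle reads and aligned them to mm10; the study's methods name TopHat, and the submitters' processing notes name STAR 2.5.3a, CASAVA 1.8.2 and Partek. The methods speak of RPKM, but the deposited values are a signal with no length factor: the 75th percentile is the same in all libraries, and 61.2% of low values are whole multiples (tolerance 0.01) of the smallest value of the library, which was taken as 1 added read. Estimated reads are the value over that smallest value, minus 1, and carry counting error only. As many are not whole, no count test was run.

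The groups were compared in R 4.3.3 by limma 3.58.1 (lmFit, eBayes with trend) on log2(value + 1), over the 14854 of 20926 genes that reached a value of 1 in 4 or more libraries, with Benjamini-Hochberg adjustment over all of them, and for single genes and ratios with two-sided exact permutation tests. The model was tested on simulated data. The methods name a p threshold of 0.05 without adjustment being stated, so both are given. The gene lists, markers and windows were chosen with earlier results of these data known. Genes named are the 10 class I genes, list genes past the unadjusted threshold or with a role in the pathway, Ezh2, and the 10 tested genes whose log2 profile correlates best with the mean standardized profile of the 10. Some items that these rules name are not reported here. Genes of the H2-T block were picked after their values were seen. Shared exon sequence was counted in 75-base windows of GENCODE M21 transcripts on GRCm38. Plots and tables were made with Python 3.11.15, pandas 2.3.3 and matplotlib 3.10.9.

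Alternatives were pseudocounts of 0.1 and 5, a filter at 10 or none, median-of-ratios and quantile scaling, limma without trend, with robust moderation, with array weights or with voom on estimated reads, an enamel gene covariate, the replicate block, and each library left out.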

Additional observations from a re-analysis of the deposited data

Results flagged for a closer look

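In 28 groups of 4 libraries, 2 held a library set apart from the other 3 by a gap larger than Dixon's 95% critical value, where chance gives about 1.40. B2m was at 163 in control library 2 and at 134 to 137 in the other controls. Ezh2 was at 55.0 in control library 1 and at 38.3 to 39.6 in the other controls.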

How the results depend on the processing

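All 10 genes kept a positive log2 fold change under other pseudocounts, no filter, other scalings, voom and moderation, and so did the 6 still tested with the filter at 10. Reversals were H2-D1 (-0.16 without mutant (Osr2-Cre;Ezh2 fl/fl) libraries 1 and 3, -0.01 without control 1, and up to 0.54 without control 4), Tapbp (-0.08 without libraries 1 and 3 and -0.08 with array weights), Psmb10 (-0.20 without libraries 1 and 3, -0.17 with array weights, -0.02 without library 1, and up to 0.35 without library 2) and the log2 ratio Psmb10/Psmb7 (-0.01 without library 1). The cause was not tested. Tap1 and Tap2 had an unadjusted p under 0.05 in every setting.

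The number of the 10 genes higher at an adjusted p was 1, and 0 with the filter at 10, voom, no filter, the enamel covariate, without libraries 1 and 3 and with each single library left out (0 to 0), and 2 with array weights. At an unadjusted p it was 4, and 2 with the filter at 10, array weights or without libraries 1 and 3, and 2 to 7 with single libraries left out. The filter at 10 removed Psmb8, Psmb9, Psmb10 and Nlrc5 from the genes tested. The median log2 fold change was 0.22 with array weights and 0.15 without libraries 1 and 3.

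Other class I pathway genes at an unadjusted p numbered 5 higher and 0 lower. Higher were 2 with the filter at 10, 11 with array weights, 8 with the enamel covariate and 3 to 9 with single libraries left out. Lower were 1 with voom, without trend, with median-of-ratios or quantile scaling and without libraries 1 and 3, 2 with array weights or the enamel covariate, and 0 to 1 with single libraries left out. Ezh2 had a log2 fold change of -0.64 (adjusted p 0.0274) with the enamel covariate, of -0.19 (p 0.0568) with array weights and of -0.36 (p 0.0584) without libraries 1 and 3.

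Over all genes, 232 were higher and 76 lower at an adjusted p: 88 and 31 with the filter at 10, 2165 and 1875 with array weights, 108 to 292 and 20 to 92 with single libraries left out (fewest without control 3). At an unadjusted p, 1229 were higher and 724 lower: 673 and 481 with the filter at 10, 3272 and 2773 with array weights, 811 to 1361 and 459 to 945 with single libraries left out, and 1300 lower without libraries 1 and 3. The share above 0 was 54.1%, 47.3% with median-of-ratios and 49.1% with quantile scaling.

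Leaving out single libraries gave log2 ratio differences of 0.69 to 1.13 for Psmb8/Psmb5, 0.59 to 1.11 for Psmb9/Psmb6 and -0.01 to 0.29 for Psmb10/Psmb7. The study's methods mention 3 sequenced pairs of samples beside 4 samples per group, without saying which libraries form a pair. For that reason the replicate numbers were not taken as pairs. Deviations of libraries with the same replicate number correlated at -0.34, -0.08, 0.22 and -0.43, which does not settle whether they were pairs. With the replicate block, 64 genes were higher and 9 lower at an adjusted p, 0 of the 10 genes were called (Tap2: adjusted p 0.160, the highest of its 14 lost calls, which began at 0.0505), Nlrc5 passed the unadjusted threshold (p 0.0291), and the paired sign-flip test of Psmb8/Psmb5 (0.94) and Psmb9/Psmb6 (0.88) gave the smallest p that 4 pairs allow, 0.125. Nlrc5 rested on the fewest estimated reads of the 10 genes (38.0 in 1 library) and was not tested without mutant library 1, 3 or 4 or control 2, since it then missed the filter.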
